A study of Mus musculus with 8 samples.

Results

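The 10 genes described here had higher read counts in mouse ventral hippocampus after corticosterone and are not among the widely used glucocorticoid target genes: *Sult1a1*, *Ptgfrn*, *Crispld2*, *Cmtm3*, *Ampd3*, *Aff1*, *Smim3*, *1810011O10Rik*, *Hacd2* and *Mertk*. They were chosen by name from the 50686 genes of the count table, with the corticosterone response in these same libraries in view. All 10 were found in the table and all 10 passed the filter on low counts, which kept 16018 genes. The gene listed as *1810011O10Rik* carries the current symbol *Tcim* in the GENCODE M21 annotation. Because the difference between the groups chose these genes, their levels and fold changes are given as a description and without a test. Tests are given for related genes, neighbouring genes and cell type markers, whose values did not enter the choice of the 10, although these lists too were drawn up with earlier results of these data known.

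Bulk RNA-seq was performed on 8 libraries, each from the ventral hippocampus of 1 mouse. All mice were male, of the C57BL/6J strain (C57B6/J in the labels), 8 weeks old and housed 4 to a cage, and all were killed 3 h after an injection. The vehicle group (replicates 1 to 4) received the vehicle and the corticosterone group (replicates 5 to 8) received 3 mg/kg of corticosterone, so both groups share the handling and the injection. Each library held between 17492159 and 19931987 reads on genes. The tissue was not sorted. For every gene below, a change in cells of a type and a change in RNA per cell cannot therefore be told apart.

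Corticosterone is the main glucocorticoid of rodents and acts through the glucocorticoid receptor, GR (gene *Nr3c1*), and the mineralocorticoid receptor, MR (gene *Nr3c2*). Both are nuclear receptors that bind the hormone, enter the nucleus and change transcription from hormone response elements or together with other transcription factors. The proteins encoded by the 10 genes act in quite different places, as cytosolic and endoplasmic reticulum enzymes (*Sult1a1*, *Ampd3*, *Hacd2*), as membrane proteins (*Ptgfrn*, *Cmtm3*, *Smim3*, *Mertk*), as a secreted protein (*Crispld2*) and as regulators of transcription (*Aff1*, *1810011O10Rik*).

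*Fkbp5*, a cochaperone of the glucocorticoid receptor and a standard readout of glucocorticoid action, served as the check of the treatment. Its normalized counts (counts scaled by the TMM factors to the mean library size) were 2373, 1765, 1983 and 1709 in the vehicle mice and 3186, 3510, 3364 and 3177 in the corticosterone mice. The groups did not overlap, and the log2 fold change was 0.76 with a standard error of 0.10 (edgeR quasi-likelihood test, Benjamini-Hochberg adjusted p = 0.0481). It was the only gene of the 16018 that passed an adjusted p of 0.05 in this test, and with 1 library left out its adjusted p ran from 0.00224 to 0.331 and was above 0.05 in 6 of 8 fits, with a log2 fold change of 0.69 to 0.86. It was 0.0530 with at least 10 reads required per library, and 1.46e-08 in DESeq2. Library structure cut across the groups. On the first principal component, which held 33.7% of the variance, corticosterone replicate 5 lay at -19.2 beside vehicle replicates 1 to 3 (-24.8 to -8.33), and vehicle replicate 4 lay at 5.11, between these and corticosterone replicates 6 to 8 (18.9 to 23.5).

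All 10 genes had higher normalized counts in every corticosterone mouse than in any vehicle mouse, in a table where 1.99% of the tested genes were higher without overlap. After removal of trends with GC content and length, the groups of *Smim3* and *Mertk* overlapped and those of the other 8 did not. The 1.99% belongs to the values before that removal, and no such share is given after it. The log2 fold changes of the 10 genes ran from 0.26 in *Mertk* to 1.54 in *1810011O10Rik* with a median of 0.53, against a median of 0.00356 over all tested genes. Ranked by log2 fold change among the 16018 genes, *1810011O10Rik* stood at 10, *Sult1a1* at 82, *Crispld2* at 84, *Cmtm3* at 154, *Smim3* at 340, *Aff1* at 354, *Ptgfrn* at 372, *Hacd2* at 636, *Ampd3* at 739 and *Mertk* at 1415. None of the 10 passed the adjusted threshold in edgeR, in limma-voom, in edgeR with DESeq2 size factors or with at least 10 reads required in every library. In the first of these fits 0.00624% of the genes were called higher. All 10 had an unadjusted p below 0.05 in edgeR, as 4.51% of the genes did in that direction. DESeq2 called 8 of the 10 higher, all but *Smim3* and *Mertk*, in a fit that called 0.256% of the genes higher. In edgeR the number called was 8 without the filter on low counts, where 0.178% of the genes were called higher, 6 after removal of trends with GC content and length (0.112%), and 3 without vehicle replicate 1 (0.111%). Without corticosterone replicate 5 it was 9 in edgeR (3.73%) and 9 in DESeq2 (6.41%). These counts follow from how the genes were chosen and describe where they stand in each fit.

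**Figure D1:**
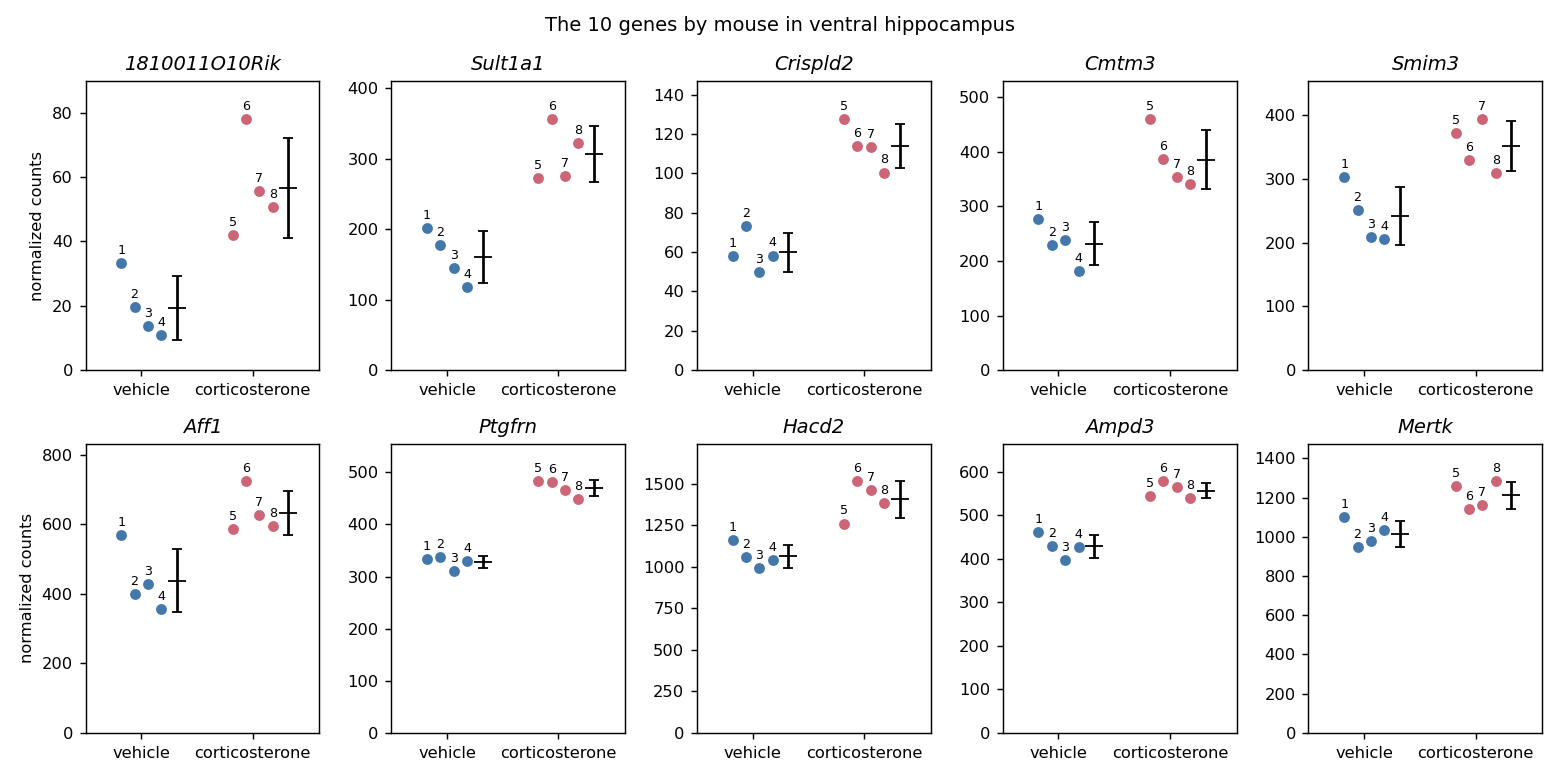
Normalized counts (y axis, from 0) of the 10 genes in each mouse, with points numbered by replicate for vehicle (blue, 1 to 4) and corticosterone (red, 5 to 8) and with a black bar for the mean and SD of 4 mice. In every panel the lowest corticosterone mouse lies above the highest vehicle mouse, with the narrowest gaps, 7.35 and 8.52 normalized counts, in *Smim3* and *1810011O10Rik*.

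Among the enzymes, *Sult1a1* had the largest fold change. It encodes a cytosolic sulfotransferase that transfers sulfate from the donor PAPS to phenolic compounds such as catecholamines and many drugs. Normalized counts were 202, 177, 146 and 118 in the vehicle mice and 273, 357, 275 and 323 in the corticosterone mice. The highest vehicle value came from replicate 1 and the lowest corticosterone value from replicate 5, and the groups did not overlap. The mean went from 161 ± 37.0 to 307 ± 40.4 (SD, n = 4), a ratio of 1.91 and a log2 fold change of 0.93 with a standard error of 0.16. *Sult1a1* shares 61 exon bases, 4.05% of its exons, with *Sgf29* on the opposite strand. *Sgf29* had 255 ± 21.2 and 251 ± 9.49 normalized counts in the same groups (log2 fold change -0.03, standard error 0.10, edgeR adjusted p = 0.930).

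Other genes of sulfonation were fixed as a list of sulfotransferases, PAPS synthases, PAPS transporters and the phosphatase of the spent donor. Of 15 such genes 8 passed the filter, and their log2 fold changes lay between -0.15 and 0.13. None had an unadjusted p below 0.05 in edgeR, against 9.03% of all tested genes in either direction. The list included *Sult4a1*, a brain sulfotransferase with the highest level of the list, at 164 FPKM in vehicle mice (read pairs scaled by exon length and library size), against 5.57 ± 1.28 (SD, n = 4) for *Sult1a1*. *Sult4a1* had a log2 fold change of -0.11 with a standard error of 0.07 (edgeR adjusted p = 0.5998). The other members of the *Sult1* family, *Sult1b1*, *Sult1c1*, *Sult1c2*, *Sult1d1* and *Sult1e1*, did not pass the filter on low counts.

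*Ampd3* encodes an AMP deaminase, which converts AMP to IMP and so feeds the purine nucleotide cycle. Its normalized counts were 463, 430, 398 and 427 in the vehicle mice and 545, 578, 564 and 541 in the corticosterone mice. The values of each group lay close together, with a coefficient of variation (SD over mean) of 6.15% in vehicle and 3.14% in corticosterone mice. This was a mean of 429 ± 26.4 against 557 ± 17.5 (SD, n = 4), a log2 fold change of 0.38 with a standard error of 0.08. *Ampd3* shares 195 exon bases, 3.47% of its exons, with *Rnf141* on the opposite strand, whose normalized counts were 1538 ± 67.9 and 1594 ± 143 (log2 fold change 0.05, standard error 0.08, edgeR adjusted p = 0.803).

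*Ampd2*, the other AMP deaminase that passed the filter, went the other way in sign. Normalized counts of *Ampd2* were 1539, 1301, 1521 and 1348 in the vehicle mice and 1369, 1112, 1197 and 1098 in the corticosterone mice. The groups overlapped through corticosterone replicate 5, and the log2 fold change of -0.26 (standard error 0.09) did not pass the adjusted threshold (edgeR adjusted p = 0.490). Per length, *Ampd2* was the more abundant of the pair in vehicle mice, at 14.3 ± 1.21 FPKM against 3.98 ± 0.245 for *Ampd3* (SD, n = 4), and the gap was narrower after corticosterone, at 11.9 against 5.17 FPKM. Of 15 other genes of AMP and purine nucleotide turnover 13 passed the filter, with 7 positive and 6 negative log2 fold changes and a median of 0.01. The adenosine-handling genes *Ada* (adenosine deaminase, 0.98, standard error 0.43) and *Nt5e* (the ecto-5'-nucleotidase CD73, 0.49, standard error 0.22) had unadjusted p-values below 0.05, and both missed the adjusted threshold (edgeR adjusted p = 0.545 for each). *Ada* had 83.5, 36.2, 21.5 and 11.8 normalized counts in the vehicle mice and 82.8, 99.8, 76.7 and 44.8 in the corticosterone mice, so that vehicle replicate 1 alone overlapped with the corticosterone group. Without that mouse the log2 fold change of *Ada* was 1.70 (standard error 0.35, edgeR adjusted p = 0.128). The purine salvage enzyme *Hprt* had the highest level of the list, 89.2 FPKM in vehicle mice, and a log2 fold change of 0.16.

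*Hacd2* encodes a 3-hydroxyacyl-CoA dehydratase, the enzyme of the dehydration step by which the endoplasmic reticulum elongates very long chain fatty acids. Its normalized counts were 1159, 1060, 990 and 1040 in the vehicle mice and 1260, 1513, 1464 and 1381 in the corticosterone mice. Corticosterone replicate 5 was the lowest of its group and vehicle replicate 1 the highest, which left the groups close but apart. The mean went from 1062 ± 70.9 to 1405 ± 111 (SD, n = 4), a log2 fold change of 0.40 with a standard error of 0.08. The other steps of the elongation cycle moved little. Of 12 other genes, which included the condensing enzymes *Elovl1* to *Elovl7*, the reductases *Hsd17b12* and *Tecr* and the other dehydratases *Hacd1*, *Hacd3* and *Hacd4*, 11 passed the filter and none had an unadjusted p below 0.05 in edgeR. Their log2 fold changes lay between -0.20 and 0.10. *Tecr*, the most abundant of them at 162 FPKM in vehicle mice, had a log2 fold change of -0.15 with a standard error of 0.08 (edgeR adjusted p = 0.546).

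**Figure D2:**
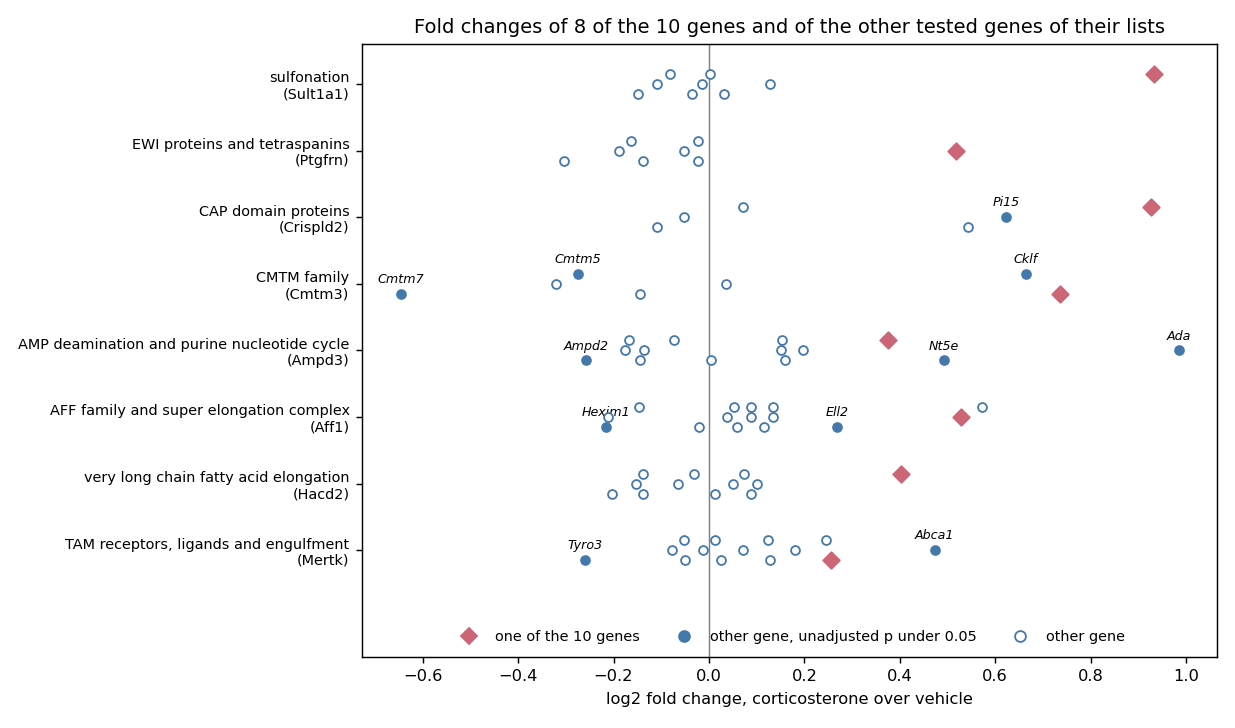
Log2 fold change of corticosterone over vehicle (x axis) for 8 of the 10 genes (red diamonds) and for the 77 other tested genes of their lists (circles), with 1 row per list. Filled and named circles are the 11 other genes with an unadjusted p below 0.05 in edgeR, 6 of them higher and 5 lower, and none of the 77 passed the adjusted threshold.

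Among the membrane proteins, *Ptgfrn* had the steadiest counts. It encodes an immunoglobulin superfamily protein of the EWI group that associates with tetraspanins such as CD9 and CD81. Normalized counts were 333, 337, 311 and 331 in the vehicle mice and 483, 481, 467 and 449 in the corticosterone mice. The coefficients of variation were 3.52% and 3.28%, against medians of 10.4% and 11.9% over all tested genes. Group means were 328 ± 11.5 and 470 ± 15.4 (SD, n = 4), a log2 fold change of 0.52 with a standard error of 0.08. All 7 tested genes of the list of EWI proteins and tetraspanins had negative log2 fold changes, from -0.30 to -0.02, and none had an unadjusted p below 0.05 in edgeR. The lowest was *Igsf8*, an EWI gene, with 3203, 4013, 4259 and 2514 normalized counts in the vehicle mice and 4408, 2144, 2428 and 2345 in the corticosterone mice. Corticosterone replicate 5 was its highest mouse of all, and without it the log2 fold change of *Igsf8* was -0.60 (standard error 0.14, edgeR adjusted p = 0.0218). *Cd81*, the tetraspanin with the highest level at 109 FPKM in vehicle mice, had a log2 fold change of -0.05 with a standard error of 0.09 (edgeR adjusted p = 0.822). *Igsf3*, an EWI gene that is also the nearest tested gene on one side of *Ptgfrn* on chromosome 3, had a log2 fold change of -0.02 with a standard error of 0.09.

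*Cmtm3* encodes a protein of the chemokine-like factor family with a MARVEL membrane domain. The mice had 277, 229, 239 and 181 normalized counts in the vehicle group and 460, 386, 354 and 340 in the corticosterone group. Here corticosterone replicate 5 was the highest of its group. Group means were 231 ± 39.6 and 385 ± 53.6 (SD, n = 4), a ratio of 1.67 and a log2 fold change of 0.73 with a standard error of 0.14. *Cmtm3* lies in a cluster of family genes on mouse chromosome 8 (GRCm38, 104339410 to 104347672, plus strand). *Cklf*, the founding chemokine-like factor of the family and the nearest tested gene on one side at 74.5 kb, had 80.5, 53.9, 65.5 and 52.3 normalized counts in the vehicle mice and 88.7, 110, 101 and 101 in the corticosterone mice. The groups of *Cklf* did not overlap (exact two-sided permutation test, p = 0.0286, the smallest that 4 against 4 allows, which 5 of the 77 related genes reached). The log2 fold change of 0.66 (standard error 0.17) did not pass the adjusted threshold across all genes (edgeR adjusted p = 0.290, DESeq2 adjusted p = 0.111). *Cmtm4*, on the other side of *Cmtm3* at a distance of 0.518 kb and on the opposite strand, had 3375 ± 336 and 3461 ± 117 normalized counts (log2 fold change 0.04, standard error 0.08, edgeR adjusted p = 0.867).

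Elsewhere in the CMTM family the signs were negative. *Cmtm7* had 31.4, 44.1, 45.0 and 40.5 normalized counts in the vehicle mice and 23.4, 26.0, 21.0 and 32.2 in the corticosterone mice, with an overlap of 1 mouse per group and a log2 fold change of -0.65 (standard error 0.22, edgeR adjusted p = 0.490). *Cmtm5*, the member with the highest level at 30.0 FPKM in vehicle mice and known from oligodendrocytes, had a log2 fold change of -0.27 with a standard error of 0.12 (edgeR adjusted p = 0.545). Per length, *Cmtm3* had 4.05 ± 0.693 FPKM and *Cklf* 0.538 ± 0.111 FPKM in vehicle mice (SD, n = 4).

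*Mertk* encodes a receptor tyrosine kinase of the TAM group (*Tyro3*, *Axl*, *Mertk*), which binds the bridging ligands Gas6 and protein S and takes part in the engulfment of dying cells and synapses by microglia and astrocytes. Its normalized counts were 1101, 946, 976 and 1032 in the vehicle mice and 1258, 1141, 1161 and 1282 in the corticosterone mice. The groups were apart by 1141 against 1101, and corticosterone replicates 6 and 7 were the lower pair of their group. Group means were 1014 ± 68.1 and 1211 ± 69.9 (SD, n = 4), a log2 fold change of 0.26 with a standard error of 0.07, the smallest of the 10. The other TAM receptors did not share the sign. *Tyro3* had a log2 fold change of -0.26 with a standard error of 0.12 (edgeR adjusted p = 0.545), and *Axl* one of -0.08 with a standard error of 0.07 (edgeR adjusted p = 0.683). Among the ligands, *Gas6* had -0.05 and *Pros1* 0.07 on the log2 scale.

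The list around *Mertk* also held genes of engulfment, and of its 13 other genes 8 had positive log2 fold changes. *Abca1*, the cholesterol and phospholipid exporter of cells that take up lipid, had 836, 691, 667 and 769 normalized counts in the vehicle mice and 964, 1127, 1094 and 928 in the corticosterone mice. The groups of *Abca1* did not overlap (exact two-sided permutation test, p = 0.0286), and the mean went from 741 ± 77.0 to 1028 ± 97.2 (SD, n = 4). Its log2 fold change was 0.47 with a standard error of 0.09, which passed in DESeq2 (adjusted p = 0.00682) and did not pass in edgeR (adjusted p = 0.196). It was the only one of the 77 related genes over all lists that DESeq2 called. *Rac1*, the GTPase of phagocytic cup formation and the most abundant of the list at 78.4 FPKM in vehicle mice, had a log2 fold change of 0.03.

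*Smim3* encodes a small integral membrane protein. It lies on chromosome 18 (GRCm38, 60474191 to 60501987, minus strand). Its normalized counts were 303, 252, 208 and 205 in the vehicle mice and 372, 330, 394 and 309.8 in the corticosterone mice. Vehicle replicate 1 and corticosterone replicate 8 came within 7.35 normalized counts of each other, the narrowest gap among the 10 genes. The mean went from 242 ± 45.6 to 352 ± 38.6 (SD, n = 4), a log2 fold change of 0.54 with a standard error of 0.13.

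*Crispld2* encodes a secreted protein with a CAP domain and LCCL domains. Its normalized counts were low, at 57.9, 73.5, 49.9 and 58.2 in the vehicle mice and 128, 114, 113 and 100.4 in the corticosterone mice. The highest vehicle mouse was replicate 2, and the 4 corticosterone mice lay close together with a coefficient of variation of 9.80%. From vehicle to corticosterone the mean went from 59.9 ± 9.85 to 114 ± 11.2 (SD, n = 4), a ratio of 1.90 and a log2 fold change of 0.93 with a standard error of 0.15. Of 11 other genes with a CAP domain 5 passed the filter. The peptidase inhibitor gene *Pi15* had a log2 fold change of 0.62 with a standard error of 0.26 (edgeR adjusted p = 0.536), from 23.8 ± 4.41 to 36.8 ± 10.3 normalized counts with overlapping groups. *Glipr1*, the most abundant of these 5 at 1.35 FPKM in vehicle mice, had 0.54 with a standard error of 0.27 (edgeR adjusted p = 0.545). *Crispld1*, the closest relative of *Crispld2* by name, had -0.05.

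Of the regulators of transcription, *1810011O10Rik* (*Tcim*) had the larger fold change and the lower counts. It encodes a small protein known as transcriptional and immune response regulator. Raw reads numbered 34, 20, 14 and 11 in the vehicle mice and 43, 72, 53 and 52 in the corticosterone mice. Vehicle replicate 1 was the highest of its group and corticosterone replicate 5 the lowest of its own, and these 2 libraries lay 8.52 normalized counts apart. The mean of the normalized counts went from 19.4 ± 10.02 to 56.6 ± 15.4 (SD, n = 4), a ratio of 2.92 and a log2 fold change of 1.54 with a standard error of 0.32. Without vehicle replicate 1 the log2 fold change was 1.93. The gene shares 337 exon bases, 18.7% of its exons, with *Gm26714* on the opposite strand, and *Gm26714* itself had 0 reads in 7 libraries and 1 read in corticosterone replicate 8.

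*Aff1* encodes a scaffold of the super elongation complex, which brings the kinase CDK9 to paused RNA polymerase II. Vehicle mice had 569, 399.6, 428 and 357 normalized counts and corticosterone mice 587, 724, 627 and 594. Vehicle replicate 1 stood apart from the other vehicle mice and 18.2 normalized counts below the lowest corticosterone mouse, replicate 5. The mean went from 438 ± 91.5 to 633 ± 62.9 (SD, n = 4), a log2 fold change of 0.53 with a standard error of 0.13, and the value without vehicle replicate 1 was 0.68. The other AFF genes had smaller values, at 0.09 for *Aff2*, -0.02 for *Aff3* and 0.09 for *Aff4*. Of 15 other genes of the complex 14 passed the filter and 10 had positive log2 fold changes. The elongation factor *Ell2* had 0.27 with a standard error of 0.12, and *Hexim1*, which holds CDK9 inactive in the 7SK particle, had -0.22 with a standard error of 0.09 (edgeR adjusted p = 0.545 for each). *Mllt1*, a reader of acetylated histones and the most abundant of the list at 26.0 FPKM in vehicle mice, had -0.21.

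Over all 8 lists, 77 of 98 related genes were tested and none passed the adjusted threshold in edgeR. At an unadjusted p below 0.05, 6 were higher and 5 lower, against 4.51% and 4.52% of all tested genes. The 5 genes at the smallest exact p were *Cklf*, *Abca1*, *Adk* (log2 fold change 0.15), *Elovl4* (0.10) and *Cmtm6* (-0.15), and the last 3 had an unadjusted p above 0.05 in edgeR. Such a p means groups without overlap, which 1.99% of all tested genes showed with higher counts after corticosterone. No such share is given for lower counts. The median log2 fold change of the 77 genes was -0.01, and 38 had a positive sign. Without corticosterone replicate 5, edgeR called 5 of them higher and 6 lower, in a fit that called 3.73% of all genes higher and 6.47% lower. The 5 called higher were *Abca1* (log2 fold change 0.50), *Cklf* (0.72), *Glipr1* (0.75), *Ell2* (0.35) and *Hprt* (0.24, against 0.16 in all mice). The 6 called lower were *Igsf8* (-0.60, against -0.30 in all mice), *Cmtm5* (-0.39), *Ampd2* (-0.33), *Mllt1* (-0.36, against -0.21 in all mice), *Hexim1* (-0.30) and *Tyro3* (-0.39, against -0.26 in all mice). That fit sets the vehicle mice against corticosterone replicates 6 to 8, which had 7.77 to 8.09% of read pairs not aligned and 1.25 to 1.28% ambiguous. Vehicle mice had 6.35 to 7.13% and 1.40 to 1.67%, and corticosterone replicate 5 had 6.45% and 1.48%. The part of this difference between libraries in the calls was not tested.

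By the GENCODE M21 annotation of GRCm38 the genes are spread over the genome. *Sult1a1* (chr7:126672865-126676432, minus strand) and *Ampd3* (chr7:110768206-110812405, plus) share a chromosome, as do *Cmtm3*, *Crispld2* (chr8:119992438-120052793, plus) and *1810011O10Rik* (chr8:24437180-24438984, minus). *Aff1* lies at chr5:103692374-103855322 (plus), *Ptgfrn* at chr3:101040232-101110278 (minus), *Hacd2* at chr16:35022428-35109177 (plus) and *Mertk* at chr2:128698956-128802894 (plus). The nearest tested protein-coding gene on each side of each of the 10 genes gave 20 neighbours. Their median log2 fold change was 0.04, 12 were positive, and none was called by edgeR or DESeq2. At an unadjusted p below 0.05 there were 2, *Cklf* beside *Cmtm3* and *Lyve1* beside *Ampd3*, where 9.03% of all tested genes had such a p in either direction. *Lyve1*, a hyaluronan receptor of lymphatic vessels and perivascular macrophages, lies 38.2 kb from *Ampd3* and had 13.2 ± 4.38 normalized counts in vehicle and 24.7 ± 4.19 in corticosterone mice (SD, n = 4; exact two-sided permutation test, p = 0.0286; edgeR adjusted p = 0.467). The neighbours of *Sult1a1* were lower in sign, at -0.35 for *Nupr1* and -0.24 for *Slx1b* on the log2 scale, and those of *Mertk*, *Anapc1* and *Tmem87b*, stood at 0.05 and 0.07.

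Levels between genes were compared per length, in FPKM over all annotated exons of a gene. In vehicle mice the order was *Hacd2* (14.8 ± 0.988), *Mertk* (12.2 ± 0.820), *Sult1a1* (5.57 ± 1.28), *Cmtm3* (4.05 ± 0.693), *Ampd3* (3.98 ± 0.245), *Aff1* (2.42 ± 0.505), *Smim3* (1.85 ± 0.349), *Ptgfrn* (1.64 ± 0.0576), *Crispld2* (0.655 ± 0.108) and *1810011O10Rik* (0.561 ± 0.290; SD, n = 4 for each). The vehicle ranges of *Sult1a1* and *Cmtm3*, *Cmtm3* and *Ampd3*, *Aff1* and *Smim3*, *Smim3* and *Ptgfrn*, and *Crispld2* and *1810011O10Rik* overlapped, so these neighbours in the order were not separated by the spread between mice. The other neighbours in the order did not overlap. The median level of the 10 genes was 3.20 FPKM, against 4.59 FPKM over all tested genes. Of the 3 genes with the largest log2 fold changes, *1810011O10Rik* and *Crispld2* were at the bottom of this order and *Sult1a1* was near the top.

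The genes differed in how steady they were between mice of a group. In vehicle mice the coefficient of variation ran from 3.52% in *Ptgfrn* to 51.7% in *1810011O10Rik*, with a median of 16.8% against 10.4% over all tested genes. In corticosterone mice it ran from 3.14% in *Ampd3* to 27.3% in *1810011O10Rik*, with a median of 9.87% against 11.9%. In 9 of the 10 genes, all but *Hacd2*, it was larger among vehicle than among corticosterone mice, which held for 42.4% of all tested genes. The coefficient divides by the mean, and the 10 genes were chosen for a higher mean after corticosterone, so this count is not independent of the choice. One vehicle mouse stood out in these genes. Replicate 1 was the highest vehicle mouse in 8 of the 10 genes, all but *Crispld2* and *Ptgfrn*, where replicate 2 was higher. Over all tested genes replicate 1 was the highest vehicle mouse in 21.4%, and in 30.7% of the 722 genes with higher counts after corticosterone at an unadjusted p below 0.05. Without replicate 1 the log2 fold change was larger in 9 of the 10 genes and the median was 0.67 in place of 0.53. In the corticosterone group, replicate 5 was the lowest in 4 genes (*1810011O10Rik*, *Sult1a1*, *Aff1* and *Hacd2*) and the highest in 3, while it was the lowest in 36.1% of all tested genes and in 58.2% of the 722. Without it the median log2 fold change of the 10 was 0.54.

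**Figure D3:**
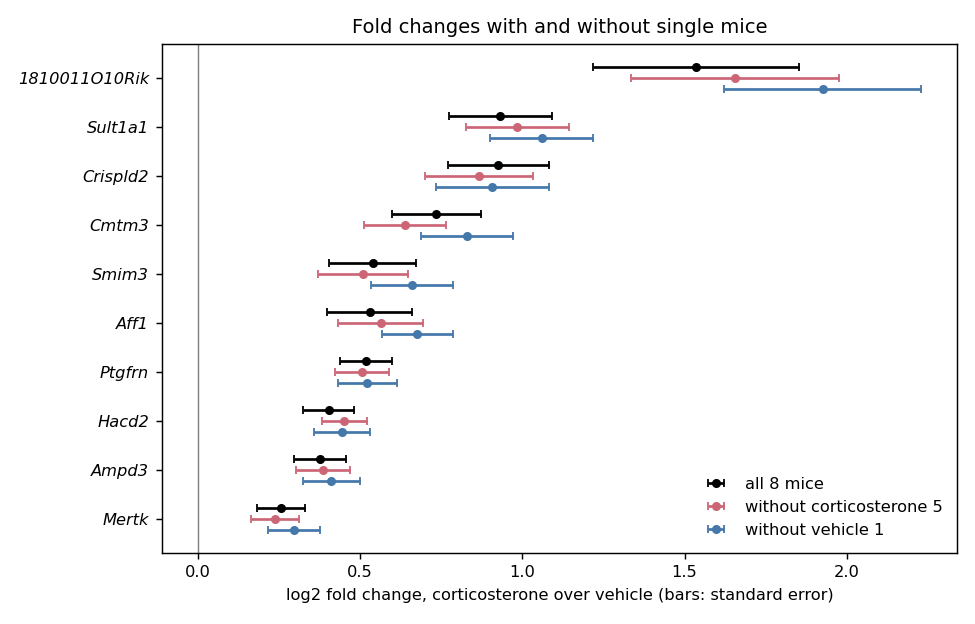
Log2 fold change of corticosterone over vehicle (x axis, with the standard error as bars) for each of the 10 genes, in all 8 mice (black), without corticosterone replicate 5 (red) and without vehicle replicate 1 (blue). All values are above 0, and the widest change is that of *1810011O10Rik*, from 1.54 in all mice to 1.93 without vehicle replicate 1.

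To see which of the genes varied together apart from the treatment, the group means were subtracted from the log2 values and Pearson's r was computed over the 8 libraries. This is a description, since all pairs share the same libraries. Of the 45 pairs 39 had a positive r, with a median of 0.440, while r between the 10 genes and all other genes compared had a median of -0.00419. The highest r was that of *1810011O10Rik* with both *Sult1a1* and *Aff1* (0.915 each), and *Sult1a1* and *Aff1* had 0.799 with each other. *1810011O10Rik* also had 0.832 with *Hacd2* and 0.808 with *Ampd3*, which had 0.848 with each other. *Ptgfrn* and *Crispld2* (0.846) made a further close pair. *Mertk* had low values with all others, down to -0.267 with *Crispld2*.

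*Fkbp5* varied most closely with *Aff1* (r = 0.969), followed by *1810011O10Rik* (0.807), *Sult1a1* (0.666), *Cmtm3* (0.637), *Smim3* (0.6002), *Hacd2* (0.594) and *Ampd3* (0.576). Its r was 0.294 with *Mertk*, 0.0137 with *Ptgfrn* and -0.291 with *Crispld2*. Much of this rested on vehicle replicate 1, which also had the highest *Fkbp5* count of the vehicle mice. Without it the median r with *Fkbp5* went from 0.597 to 0.0746 and 5 of the 10 values were positive, while *Aff1* still had 0.896. The median r among the 45 pairs was 0.219 without vehicle replicate 1.

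**Figure D4:**
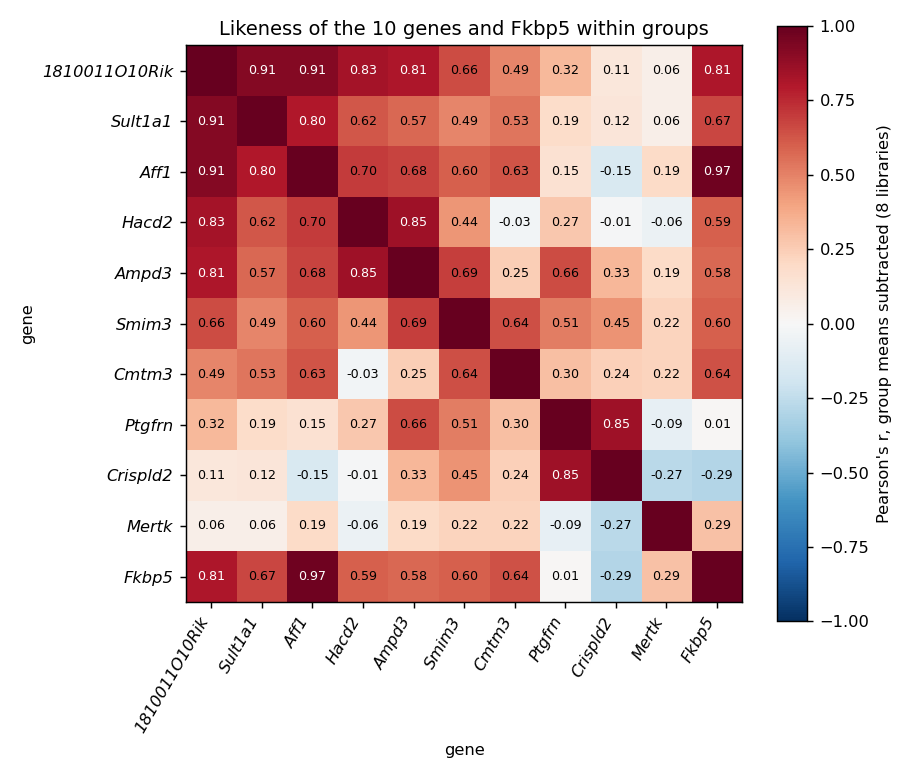
Pearson's r between the 10 genes and *Fkbp5* over 8 libraries after the group means of the log2 values were subtracted, with both axes listing the genes and colour running from -1 (blue) to 1 (red). *1810011O10Rik*, *Sult1a1* and *Aff1* have 0.666 or more with *Fkbp5*, *Ptgfrn* and *Crispld2* pair with each other at 0.846, and *Mertk* has low values with all of them.

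For each gene, the most alike of 14685 genes by the same measure were listed. These were *Slco4a1* (r = 0.990) and *Sh3gl3* (0.982) for *1810011O10Rik*, *Selenos* (0.978) and *Adam8* (0.966) for *Sult1a1*, and *Commd10* (0.981) and *Acsl1* (0.973) for *Aff1*. For *Cmtm3* they were *Tprn* (0.991) and *Evc* (0.988), for *Smim3* *Sirt2* (0.967) and *Fignl1* (0.964), and for *Ptgfrn* *Ddit3* (0.977) and *Rbpj-ps3* (0.958). For *Hacd2* they were *Setdb2* (0.974) and *Ginm1* (0.974), for *Ampd3* *Gm15267* (0.970) and *9130401M01Rik* (0.969), for *Crispld2* *Zfp783* (0.974) and *Mcoln1* (0.954), and for *Mertk* *Phc1* (0.964) and *Epha3* (0.962). Such values are the highest of many over 8 libraries. Of these 20 genes, *Slco4a1* (log2 fold change 0.74, standard error 0.33) and *Setdb2* (0.39, standard error 0.18) had an unadjusted p below 0.05, and neither passed the adjusted threshold (edgeR adjusted p = 0.545 for each).

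Marker genes of the cell types in the tissue were summed per library after scaling by library size (CPM). Markers of neurons (6063 to 6814 in vehicle and 6194 to 6554 in corticosterone mice), of hippocampal fields (495 to 632 and 491 to 582) and of astrocytes (2249 to 2463 and 2132 to 2388) were present in every library, and no list had a gene at 0 in all libraries. Of 13 lists none passed an adjusted p of 0.05, which with 4 mice against 4 would have needed 8 lists at the smallest exact p at once. The sum of the 6 microglia markers was 339 to 353 CPM in vehicle and 269 to 331 CPM in corticosterone mice, and that of the 5 endothelial markers 107 to 115 and 93.1 to 104 CPM. Neither list overlapped between the groups (exact two-sided permutation test, p = 0.0286 each, 0.186 after Benjamini-Hochberg adjustment over the 13 lists). Between the groups, *Mertk*, which microglia express, was higher where the microglia sum was lower, and its higher counts follow from how it was chosen. Within the groups, mice with a higher microglia sum tended to have more *Mertk*, with an r of 0.718.

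The oligodendrocyte sum (5 markers, among them *Mbp*, *Mag* and *Mog*) was 3265, 2566, 2285 and 1809 CPM in the vehicle mice and 2412, 1705, 1743 and 1834 CPM in the corticosterone mice, with an exact two-sided permutation p of 0.2 (0.52 after adjustment over the 13 lists). Vehicle replicate 1 was again the highest. Within the groups 9 of the 10 genes had a positive r with this sum, up to 0.750 in *Smim3* and 0.907 in *Cmtm3*, while *Hacd2* had -0.00645. The median of 0.472 went to 0.125 without vehicle replicate 1. The choroid plexus sum, from 21.6 to 68.2 CPM in vehicle and 32.2 to 70.7 CPM in corticosterone mice, had a positive r with all 10, with a median of 0.593 that went to 0.281 without vehicle replicate 1. The part of these cell types in the differences between the groups was not tested.

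Promoter sequences were available from RefSeq for 8 of the 10 genes, in 11 windows of 300 bases (GRCm38.p6). They were searched on both strands for the hormone response element, which is AGAACA and TGTTCT separated by 3 free bases, and for a single arm, AGAACA or TGTTCT alone, which every full element also holds. None of the 11 windows held the full element, which 0.00913% of 32851 windows did, and none held a form with fewer fixed letters, found in 0.475% of windows. A single arm was found in the windows of *Sult1a1* and *Hacd2*, and 19.0% of all windows held one. In *Sult1a1* one begins 34 bases before the start on the same strand and one 212 bases before it on the opposite strand. In *Hacd2* it begins 242 bases before the start on the same strand. These 2 windows are shown for these arms, in capitals, and those of *Crispld2* and *Cmtm3* because they follow *Sult1a1* in fold change among the genes with a window. Each window runs around a RefSeq start, which in *Cmtm3* lies 1184 bases inside the gene as GENCODE M21 draws it, and within 14 bases of its outer end in the other 3 shown. The windows are *Sult1a1* at chr7:126676369-126676668 on the minus strand, *Hacd2* at chr16:35022171-35022470, *Crispld2* at chr8:119992188-119992487 and *Cmtm3* at chr8:104340344-104340643, the last 3 on the plus strand, each read 5′ to 3′ along the gene.
Sult1a1: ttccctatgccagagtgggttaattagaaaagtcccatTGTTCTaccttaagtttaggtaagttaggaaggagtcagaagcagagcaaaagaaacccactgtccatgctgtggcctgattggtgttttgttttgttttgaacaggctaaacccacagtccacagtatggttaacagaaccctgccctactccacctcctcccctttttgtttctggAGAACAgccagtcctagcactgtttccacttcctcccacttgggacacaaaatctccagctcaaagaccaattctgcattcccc
Hacd2: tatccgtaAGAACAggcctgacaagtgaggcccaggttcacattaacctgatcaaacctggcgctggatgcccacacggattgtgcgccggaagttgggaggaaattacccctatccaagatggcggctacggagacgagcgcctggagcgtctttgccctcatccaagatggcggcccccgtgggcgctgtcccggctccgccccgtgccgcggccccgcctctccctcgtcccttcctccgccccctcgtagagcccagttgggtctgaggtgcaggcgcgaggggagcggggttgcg
Crispld2: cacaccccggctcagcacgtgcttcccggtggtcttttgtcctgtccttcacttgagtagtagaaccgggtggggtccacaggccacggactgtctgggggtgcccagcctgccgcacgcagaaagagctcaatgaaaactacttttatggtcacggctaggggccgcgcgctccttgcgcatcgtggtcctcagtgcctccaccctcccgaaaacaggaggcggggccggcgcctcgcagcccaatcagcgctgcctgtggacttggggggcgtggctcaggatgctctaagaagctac
Cmtm3: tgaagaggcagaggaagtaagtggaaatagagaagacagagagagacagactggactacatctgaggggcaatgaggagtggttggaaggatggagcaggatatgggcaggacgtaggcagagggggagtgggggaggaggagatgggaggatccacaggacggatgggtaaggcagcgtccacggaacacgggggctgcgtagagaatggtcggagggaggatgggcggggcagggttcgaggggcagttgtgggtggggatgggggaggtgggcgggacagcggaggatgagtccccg
The *Sult1a1* window differed from the others in composition, with 46.3% GC and 0 CpG, against medians of 52.7% and 7 over all windows. The other 10 windows had 51.3% GC or more, up to 80.0% GC and 44 CpG in *Ptgfrn*. A match of letters in so short a window is a description, and enhancers farther away were not searched.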

How the data were processed

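Bulk RNA-seq was measured in ventral hippocampus of 4 vehicle and 4 corticosterone mice. Per the study's methods and the labels, paired reads of 100 bases were aligned to mm10 with GSnap and counted per Ensembl gene with HTSeq-count, and the authors deposited the raw count of each gene in each library, not normalized. The study's methods describe the libraries as stranded. The annotation release and the strand setting of HTSeq-count are not given in the sources used here, so genes that share exons are uncertain. All 8 columns were mapped to samples and 0 were left out. The 5 rows that name no gene were left out of library sizes; they held 5.39 to 5.89% of the tallied read pairs without a feature, 1.25 to 1.67% ambiguous, 6.35 to 8.09% not aligned, 0.236 to 0.487% of low quality and 0.0420 to 0.111% not unique, the last with 0.0420 to 0.0536% in corticosterone and 0.0699 to 0.111% in vehicle libraries.

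Symbols and exons came from GENCODE M21 (GRCm38), which held 50462 of 50686 identifiers. Counts were normalized with TMM, kept by filterByExpr and compared by the edgeR 4.0.16 quasi-likelihood test (R 4.3.3), with Benjamini-Hochberg adjustment over all genes tested and a threshold of 0.05. Log2 values used a prior count of 2. FPKM and marker sums in CPM used TMM-scaled library sizes. Exact permutation tests ran over the 70 assignments of 4 against 4. Alternatives were DESeq2 1.42.0 (which the study used as its test), limma-voom (limma 3.58.1), DESeq2 size factors, no filter, at least 10 reads in every library, removal of a trend with GC content and length (splines with 5 degrees of freedom), and each library left out. The test was checked on simulated counts.

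The 10 genes and all lists were chosen with earlier results of these data known. Besides the 10 genes and *Fkbp5*, the rule named the most abundant gene of each list, list genes and neighbours with an unadjusted p below 0.05, and the 2 genes most alike to each; *Adk*, *Elovl4*, *Cmtm6*, *Sgf29*, *Rnf141*, *Gm26714*, *Axl*, *Gas6*, *Pros1*, *Crispld1*, the AFF genes, *Cmtm4*, *Igsf3* and the neighbours of *Sult1a1* and *Mertk* were named in addition, as overlapping, related or neighbouring genes, after their values were seen, as were *Igsf8* and the other list genes called without corticosterone replicate 5. Labels name 1 mouse per library and no batch. Of the oligodendrocyte markers 1 is not reported here, and it was left out of the sum of that list.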

Additional observations from a re-analysis of the deposited data

Results flagged for a closer look

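Sets of 4 mice were searched for a single mouse far from the other 3, over the normalized counts of the 10 genes and the marker sums in each group. Of 46 sets 2 held one, and chance gives about 1 in 20, or 2.3 of 46. Neither was among the 10 genes. The sum of the markers of meningeal fibroblasts (*Dcn*, *Lum*, *Col1a1*, *Col1a2* and *Igf2*) was 251.6 CPM in corticosterone replicate 6, against 139.9 to 153.2 CPM in the other corticosterone mice. In vehicle mice it was 94.2 to 174.9 CPM, and all 5 markers had positive log2 fold changes. The ratio of the group means was 1.41 (exact two-sided permutation test, p = 0.171, 0.52 after adjustment over the 13 lists), or 1.20 without replicate 6. Replicate 6 was also the highest corticosterone mouse in 5 of the 10 genes, a count for which no share of all tested genes is given. With the group means subtracted, r with this sum over the 8 libraries ran from -0.623 in *Mertk* to 0.519 in *Ptgfrn* and 0.555 in *Crispld2*, and was 0.242 in *Sult1a1*, 0.151 in *1810011O10Rik* and -0.121 in *Aff1*. The sum of the erythrocyte markers was 263.4 CPM in vehicle replicate 2, against 83.09 to 107.9 CPM in the other vehicle mice. Replicate 2 was the highest vehicle mouse in *Crispld2* and *Ptgfrn*, and in 23.4% of all tested genes. The part of either in the values of these genes was not tested.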

How the results depend on the processing

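All 140 values that alternatives gave for the log2 fold changes of the 10 genes were positive, from 0.21 to 1.93. The number of the 10 called higher depended on the fit: 0 in edgeR, in limma-voom, with DESeq2 size factors and under the minimum of 10 reads per library, 8 in DESeq2, 8 without the filter on low counts, 6 with the GC and length trend removed, and 0 to 9 with single libraries left out (3 without vehicle replicate 1, 9 without corticosterone replicate 5). DESeq2 without corticosterone replicate 5, an alternative chosen after seeing the data, called 9, all but *1810011O10Rik*, which got no adjusted p there. The number of all genes called was 1 (*Fkbp5*), and 63 in DESeq2, 79 without the filter, 0 with at least 10 reads in every library, 29 with the trend removed, and 0 to 1651 with single libraries left out (19 without vehicle replicate 1, 1651 without corticosterone replicate 5; 2214 in DESeq2 without the latter). Related genes called numbered 0, and 1 in DESeq2, without the filter and with the trend removed, and 0 to 11 with single libraries left out. Neighbours called numbered 0, and 0 to 1 with single libraries left out. With the trend removed the groups overlapped in *Smim3* and *Mertk*. The other 8 genes stayed without overlap, a count with no share of all tested genes beside it. The cause of these changes was not tested. No paired analysis was possible because no replicate number occurs in both groups. With 4 mice a group, and 11 to 34 reads of *1810011O10Rik* in vehicle mice, its fold change is the least precise.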
